A study of Saccharomyces cerevisiae with 59 samples.

Results

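The genes of the kinetochore and of the spindle checkpoint were followed through 2 synchronous cell cycles of budding yeast, in RNA and in chromatin. They were 40 genes of 5590, picked by name for the complexes to which they belong and not for any measured value. Of these, 39 were listed under the names used here and NDC80 under its older symbol TID3 (YIL144W), which the RefSeq annotation pairs with it. They form 9 role groups: the centromeric histone CSE4 with MIF2 (2 genes), the CBF3 subunits CEP3 and CTF13 (2), the COMA subunits (4), other inner kinetochore proteins (5), the Mis12/MIND complex (4), the Ndc80 complex (4), the Dam1/DASH complex (9), the chromosomal passenger complex with shugoshin (4) and the spindle checkpoint (6).

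The kinetochore is the protein assembly that ties a chromosome to the spindle. In budding yeast it is built on a single centromeric nucleosome that carries Cse4, the centromeric form of histone H3. Inner proteins read this nucleosome and the centromere sequence, the MIND and Ndc80 complexes extend outward, and the Dam1 ring holds the microtubule. The passenger complex with its Aurora kinase Ipl1 releases faulty attachments, and the Mad and Bub proteins delay anaphase while kinetochores are unattached. Yeast centromeres replicate early in S phase, and new kinetochores form on them in the same S phase.

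All libraries came from one W303 strain of mating type MATa (ade2-1, can1-100, his3-11,15, URA3::BrdU-Inc, BAR1::TRP and a mutant leu2 allele), so that there was no mutant or untreated group. Cells were held in late G1 with the mating pheromone α-factor, and released, with the arrested sample as 0 min. The libraries after release were labelled every 10 min from 20 to 150 min in replicate 1 and from 10 to 140 min in replicate 2, whose RNA at 110 min was not analysed here. Those of replicate 1 stand 10 min earlier on the aligned scale used here. The 59 libraries comprised 29 of total RNA and 30 of chromatin cut with micrococcal nuclease (MNase), from 2 biological replicates aligned by their cell-cycle progression. The aligned times were G1 at 0 and 10 min, S at 20 and 30 min, S/G2 at 40 min, G2/M at 50 min and M at 60 min. The second cycle was G1 at 70 min, S at 80 and 90 min, S/G2 at 100 min, G2/M at 110 min, M at 120 min, G1 at 130 min and S at 140 min.

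Each table held 1 value per gene and time point, in which the authors had merged the replicates. No SD between replicates was therefore available and no difference between time points was tested. Values of the second cycle are given beside those of the first, but the same cultures passed through both, so that they are no replicate. RNA at 110 min rested on 1 library, and the labels of 1 chromatin library at 10 min disagreed on whether it was taken after release. In bulk cultures, fewer cells in a phase and less RNA per cell cannot be told apart. Read depth per gene is unknown from these tables. Known cell-cycle genes were highest in the phases for which they are known. The median z-score of G1/S genes was highest at 10 and 70 min, of core histones at 20 and 80 min, of G2/M genes at 50 and 110 min, and of pheromone response genes at 0 min. The M/G1 genes were highest at 60 and 70 min.

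RNA of the kinetochore and checkpoint genes was for most genes highest shortly before or in S phase of both cycles. It was lowest in the arrest for 22 of the 40 genes and at 50, 60 or 120 min for 13. The share of all genes with these lowest times was not counted. The median z-score at 0 min was -1.57 over the 40 genes and 0.20 over all genes. In the first cycle, 12 genes had their highest value at 10 min, 7 at 20 min and 13 at 30 min, beside 21.0%, 11.6% and 9.18% of all genes. In the second, 13 genes were highest at 70 min, 5 at 80 min and 19 at 90 min, beside 43.1%, 6.94% and 11.1% of all genes. Both highest values fell within 10 to 30 min and 70 to 90 min for 32 of the 40 genes, or 80%, beside 32.5% of all genes. After upper quartile scaling this was so for 26, beside 16.1% of all genes, and with the arrest left out of the first cycle for 34, beside 45.8%. The other 8 were NUF2, SPC25, AME1, IML3, SLI15, MAD1, MAD2 and CEP3. Levels were low to moderate, with a median of the time-course means of 23.1 beside 42.6 over all genes, in the deposited RNA unit that the tables name TPM. Every one of the 40 genes had a mean of at least 10 and none was at 0 at any time, with single values between 3.97 for IPL1 and 232.5 for DAD4.

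**Figure D1:**
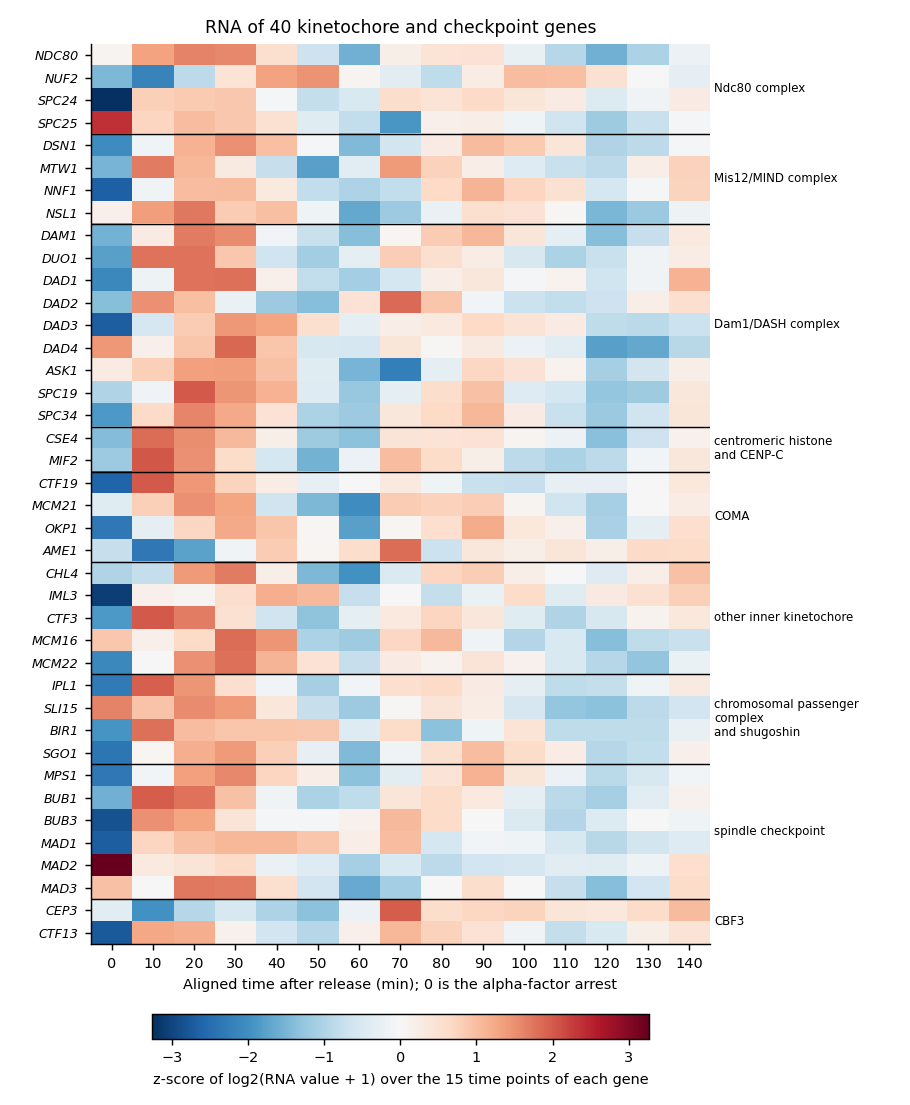
Heat map of the RNA of the 40 genes, with 1 row per gene grouped by role, 1 column per aligned time point in min, and colour for the z-score of log2(RNA value + 1) over the 15 time points of a gene. Most rows are red at 10 to 30 min and again, more weakly, at 70 to 90 min, whereas NUF2 is red at 40 to 50 min and SPC25 and MAD2 at 0 min.

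The swing of RNA within a cycle was moderate and was larger in the first cycle. The range of log2(value + 1) from 0 to 60 min had a median of 1.03 over the 40 genes and 0.69 over all genes. From 70 to 130 min the medians were 0.50 and 0.36. A range of at least 2-fold in both cycles with highest values 50 to 70 min apart was met only by DAD2, beside 3.85% of all genes. With a range of at least 1.5-fold it was met by 15, or 37.5%, beside 11% of all genes. The shape of the time course nevertheless repeated. The correlation between log2(value + 1) at 10 to 80 min and at 70 to 140 min, over 8 time points shifted by 60 min, had a median of 0.79 over the 40 genes and 0.34 over all genes. It was at least 0.8 for 20 of the 40 genes, beside 16% of all genes. SLI15 at 0.98, NDC80 at 0.96 and DUO1 at 0.95 were the highest, and MAD2 at -0.67, CEP3 at -0.36 and IML3 at -0.31 the lowest. The windows share the 70 and 80 min samples, and neighbouring time points of a culture are not independent.

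S phase was then set against G2/M and M, as the difference of mean log2(value + 1) between 20 and 30 min and 50 and 60 min, and between 80 and 90 min and 110 and 120 min. The median difference was 0.50 in the first cycle over the 40 genes and 0.13 over all genes, and 0.30 and 0.04 in the second. Of the 40 genes, 35 were higher in S phase in both cycles, beside 50.1% of all genes, and 2 were lower, beside 14.1%. After upper quartile scaling, which lowers the difference of the median gene, 32 were higher, beside 28.8% of all genes, and 5 were lower, beside 34.4%. At least 1.5-fold higher in both cycles were 5, which were SPC25, MIF2, IPL1, SLI15 and BUB1, beside 2.02% of all genes. None was at least 1.5-fold lower in both cycles, beside 0.966% of all genes. The count of 5 depended on small margins. SLI15, with a smaller difference of 0.59, and IPL1, with 0.60, were just above the threshold of 0.585, and DUO1 at 0.57, MTW1 at 0.57 and SPC34 at 0.56 were just below it. With the G1 samples at 10 and 70 min in place of 30 and 90 min, SPC25 had 0.83 and 0.03 in the successive cycles and SLI15 0.80 and 0.56, so that neither passed in both. Other genes passed in that setting, where the count was 7, beside 3.26% of all genes. Without the 110 min sample, which had 1 RNA library, it was 8, beside 1.735% of all genes, and without 50 min 3, beside 1.61%. After scaling each time point to its upper quartile it was 2, beside 1.56%, and with a pseudocount of 5 it was 0, beside 1.31%.

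**Figure D2:**
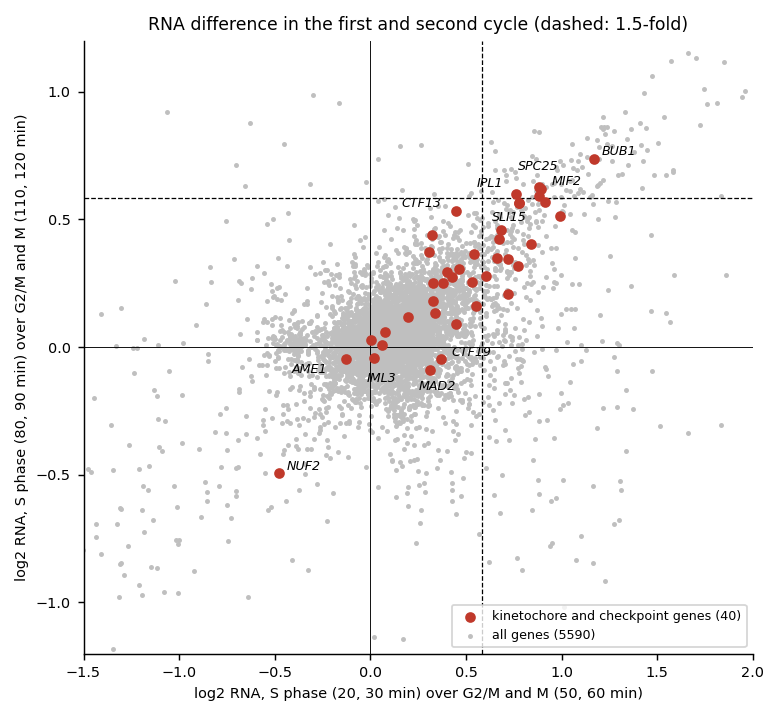
Difference of mean log2(RNA value + 1) between S phase and G2/M and M in the first cycle (horizontal axis) and the second (vertical axis), for the 40 genes (red) and all 5590 genes (grey, of which 50 lie outside the axes). Dashed lines mark 1.5-fold; BUB1 lies farthest to the upper right at 1.17 and 0.74, and NUF2 is the red point at the lower left at -0.48 and -0.49.

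The promoters of the genes were searched for the sequences that G1/S and mitotic regulators of yeast are known to bind. MBF, which drives replication genes in late G1, binds the MCB sequence ACGCGT, and the related factor SBF binds SCB sequences of the forms CGCGAAA and CACGAAA. Forkhead factors, which act later in the cycle, bind GTAAACA. Each sequence was searched on both strands in the 300 bases from 250 before the transcription start given in the tables to 50 from it on, in the RefSeq R64 genome. ACGCGT was present in 4 of the 40 promoters, or 10%, beside 3.94% of all promoters. CGCGAAA was present in 10, or 25%, beside 4.56%, and CACGAAA only in BUB3, beside 4.74%. In DAD4, counted among the 10, CGCGAAA began at position 37 from the transcription start. That start is also the first base of the DAD4 coding region, so that the sequence lay within coding sequence. At least 1 of these 3 was present in 14 of the 40, or 35%, beside 12.6% of all promoters. GTAAACA was present in 10, or 25%, beside 7.05%. These counts are descriptions of the letters in a window and not of factor binding.

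The G1/S sequences were most frequent at genes whose RNA was highest at 10 min. Of these 12 genes, 9 held at least 1, against 4 of the 20 highest at 20 or 30 min and 1 of the 8 highest at 0 min or at 40 to 60 min. Among all 1172 genes highest at 10 min the share was 22.7%. The exceptions among the 12 were DUO1, BIR1 and BUB1. GTAAACA was present in 2 of the 12, in 6 of the 20 and in 2 of the other 8. The share of all genes was not counted for GTAAACA by highest time, nor for the G1/S sequences at times other than 10 min. Whether those counts depart from all genes of the same highest time is therefore not known. All 4 promoters with ACGCGT belonged to genes highest at 10 min. They are shown with 30 bases on either side, 5′ to 3′ on the strand of the gene, with the motif in capitals.
MTW1 (chrI:79582-79647, + strand): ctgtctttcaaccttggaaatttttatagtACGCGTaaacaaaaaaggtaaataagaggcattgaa
MIF2 (chrXI:273269-273334, + strand): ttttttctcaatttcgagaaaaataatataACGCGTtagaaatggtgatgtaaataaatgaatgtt
CTF19 (chrXVI:517536-517601, + strand): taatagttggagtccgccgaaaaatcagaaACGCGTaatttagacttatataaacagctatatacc
IPL1 (chrXVI:157726-157791, - strand): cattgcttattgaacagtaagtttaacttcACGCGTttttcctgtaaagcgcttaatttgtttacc

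The 5 genes highest at 10 min whose promoters held CGCGAAA are shown in the same way. In CTF13 the motif lies on the other strand and therefore reads TTTCGCG.
DAD2 (chrXI:596914-596980, - strand): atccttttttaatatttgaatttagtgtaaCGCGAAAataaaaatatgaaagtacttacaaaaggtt
CSE4 (chrXI:346891-346957, - strand): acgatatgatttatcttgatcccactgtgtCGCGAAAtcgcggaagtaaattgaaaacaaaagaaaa
CTF3 (chrXII:879585-879651, + strand): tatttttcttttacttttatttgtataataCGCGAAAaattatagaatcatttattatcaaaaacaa
BUB3 (chrXV:379698-379764, + strand): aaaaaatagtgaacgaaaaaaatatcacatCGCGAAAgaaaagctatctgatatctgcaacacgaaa
CTF13 (chrXIII:455692-455758, + strand): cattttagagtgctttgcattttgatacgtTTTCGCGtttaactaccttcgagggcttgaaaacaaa

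Forkhead sequences are shown for the 5 genes highest at 30 min that held them, again with the motif in capitals. In OKP1 it lies on the other strand and reads TGTTTAC. SPC24 also held CGCGAAA, which began at position -124 from the transcription start, and GTAAACA at -73. In MTW1, the only gene where searched motifs overlapped, GTAAACA shares its first letters with the end of ACGCGT.
SPC24 (chrXIII:501956-502022, - strand): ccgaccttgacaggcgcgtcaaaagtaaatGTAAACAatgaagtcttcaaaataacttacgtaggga
NNF1 (chrX:636937-637003, + strand): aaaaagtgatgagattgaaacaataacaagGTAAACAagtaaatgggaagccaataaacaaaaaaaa
OKP1 (chrVII:854969-855035, - strand): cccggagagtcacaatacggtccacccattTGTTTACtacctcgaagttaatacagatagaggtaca
SGO1 (chrXV:464597-464663, + strand): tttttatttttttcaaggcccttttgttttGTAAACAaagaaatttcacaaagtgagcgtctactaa
MPS1 (chrIV:403496-403562, - strand): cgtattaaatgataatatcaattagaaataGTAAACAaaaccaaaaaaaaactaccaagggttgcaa

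Genes within a role group differed in when their RNA was highest, whereas several groups shared a time. The median z-score of the Ndc80, Mis12/MIND, Dam1/DASH, COMA and checkpoint groups was highest at 20 min. That of CBF3 was also highest at 20 min in the first cycle, but only at 0.12. Neither of its genes was highest then, with CTF13 highest at 10 min and CEP3 at 60 min. In the same cycle the other groups had earlier or later times. For CSE4 with MIF2 and the passenger complex with shugoshin it was 10 min, and for the other inner proteins 30 min. In the second cycle it was 90 min for the Ndc80, Mis12/MIND, Dam1/DASH and COMA groups. The other groups were then highest at 70 or 80 min. For each group the gene with the widest RNA range in its flatter cycle is given at every time point, in steps of 10 min, with its identifier and coding region in the R64 genome.

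**Figure D3:**
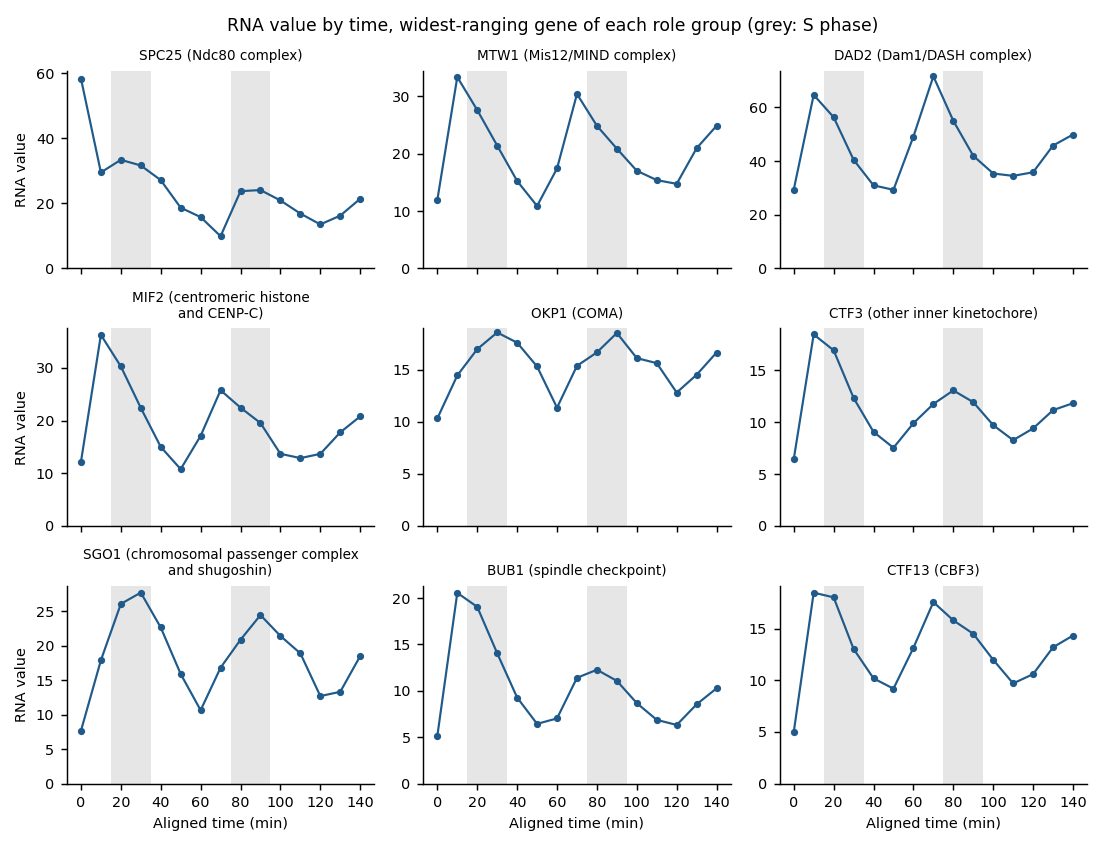
RNA value as deposited (vertical axes, from 0) against aligned time in min for the gene of each role group with the widest range in its flatter cycle, 1 point per merged time point and S phase in grey. MTW1, DAD2, MIF2, BUB1 and CTF13 are high at 10 min, OKP1 and SGO1 at 30 min, and SPC25 at 0 min.

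At the base of the kinetochore, CSE4 and MIF2, the yeast CENP-C that binds the centromeric nucleosome, were both highest at 10 min. MIF2 (YKL089W, chrXI:273394-275043) had RNA values of 12.2, 36.3, 30.3, 22.4, 15.0, 10.8 and 17.1 from 0 to 60 min and of 25.8, 22.5, 19.5, 13.7, 12.9, 13.7, 17.8 and 20.8 from 70 to 140 min. The gene was thus highest just before S phase in both cycles, 3.16-fold above its lowest value in the first and 1.93-fold in the second, on the scale of value + 1. CSE4 was 59.3 at 10 min and 28.2 at 60 min, and in the second cycle 43.2 at 90 min and 28.1 at 120 min. Its second-cycle values from 70 to 90 min lay between 42.7 and 43.2, so that its highest time there was not distinct.

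CBF3 binds the centromere DNA element CDEIII, and its subunits behaved unlike each other. CTF13 (YMR094W, chrXIII:455825-457261) had RNA values of 4.97, 18.5, 18.0, 13.0, 10.2, 9.19 and 13.2 from 0 to 60 min and of 17.6, 15.8, 14.5, 12.0, 9.70, 10.6, 13.2 and 14.3 from 70 to 140 min. It was highest in G1 and early S phase of both cycles and lowest in the arrest. CEP3 RNA stayed between 14.9 at 10 min and 20.2 at 70 min, with a range of 1.14-fold before 70 min, the narrowest of the 40 genes, and of 1.13-fold from 70 to 130 min.

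COMA bridges the centromeric nucleosome and the outer complexes, and it comprises CTF19, MCM21, OKP1 and AME1. OKP1 (YGR179C, chrVII:853675-854895) had RNA values of 10.3, 14.4, 17.0, 18.6, 17.6, 15.3 and 11.3 from 0 to 60 min and of 15.4, 16.6, 18.5, 16.1, 15.6, 12.8, 14.5 and 16.6 from 70 to 140 min. It was highest at 30 and 90 min, in the later S phase sample of each cycle. CTF19 was highest at 10 min, with 25.3, and its second cycle was flat, with 13.8 to 17.5 between 70 and 130 min. MCM21 was highest at 20 min, with 16.5, against 9.45 at 60 min. AME1 was lowest, with 14.4, at 10 min, where CTF19 was highest.

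Of the other inner kinetochore proteins, CTF3, MCM16 and MCM22 form one complex, and CHL4 and IML3 a pair. CTF3 (YLR381W, chrXII:879723-881924) had RNA values of 6.43, 18.5, 16.9, 12.4, 9.07, 7.54 and 9.91 from 0 to 60 min and of 11.8, 13.1, 11.9, 9.72, 8.28, 9.41, 11.2 and 11.8 from 70 to 140 min. CTF3 was highest at 10 min, before its partners MCM16 and MCM22, which were both highest at 30 min with 25.7 and 23.6. MCM16 was nearly flat, however, with ranges of 1.19-fold and 1.15-fold in the successive cycles. In the second cycle CTF3 and MCM16 were both highest at 80 min and MCM22 at 90 min. CHL4 was highest at 30 min with 16.2, against 8.81 at 60 min. IML3 was the flattest gene of the second cycle, with a range of 1.10-fold.

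MIND joins the inner kinetochore to Ndc80, and its 4 subunits had 3 different times. MTW1 (YAL034W-A, chrI:79718-80587) had RNA values of 12.0, 33.4, 27.6, 21.4, 15.3, 10.9 and 17.4 from 0 to 60 min and of 30.4, 24.9, 20.9, 17.0, 15.4, 14.8, 21.0 and 24.9 from 70 to 140 min. MTW1 was high in G1 and early S phase and low in G2/M of both cycles. NSL1 was highest at 20 min with 39.8, and DSN1 and NNF1 at 30 min with 27.9 and 33.5. NNF1 was already 33.4 at 20 min, so that its highest time was not distinct. In the second cycle those 3 were highest at 90 min and MTW1 at 70 min.

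The Ndc80 complex binds the microtubule, and its 4 subunits were highest at 4 different times of the first cycle. It is made of the Ndc80-Nuf2 and Spc24-Spc25 dimers. SPC25 (YER018C, chrV:191959-192624) had RNA values of 58.4, 29.6, 33.4, 31.7, 27.2, 18.7 and 15.8 from 0 to 60 min and of 9.92, 23.8, 24.1, 20.9, 16.9, 13.6, 16.3 and 21.5 from 70 to 140 min. It was far higher in the arrest than at any later time, and apart from that highest in S phase of each cycle. SPC24, its partner, was 6.25 in the arrest, its lowest value, and between 29.1 and 30.4 from 10 to 30 min. NDC80 was highest at 20 min with 26.2, nearly as high at 30 min with 26.0, and lowest at 60 min with 14.7. In the second cycle NDC80, SPC24 and SPC25 were all highest at 90 min. NUF2, the partner of NDC80, was highest after S phase. NUF2 (YOL069W, chrXV:198942-200297) had RNA values of 14.7, 11.4, 18.3, 28.7, 38.7, 40.9 and 25.4 from 0 to 60 min and of 21.6, 18.4, 26.9, 34.8, 34.5, 29.3, 24.7 and 22.2 from 70 to 140 min. NUF2 was lowest at 10 min and highest at 50 min in the first cycle, and lowest at 80 min and highest at 100 min in the second. NUF2 and AME1 were the only genes of the 40 lower in S phase than in G2/M and M in both cycles, NUF2 by a log2 difference of -0.48 and -0.49 and AME1 by -0.13 and -0.05. With 10 and 70 min in place of 30 and 90 min, NUF2 was at -1.11 and -0.65 and thus at least 1.5-fold lower in both cycles. After upper quartile scaling, IML3, BIR1 and CEP3 were lower in both cycles as well.

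The Dam1 complex, a ring of outer kinetochore subunits, was measured through 9 genes that were highest at 10 min (DUO1, DAD2), 20 min (DAM1, SPC19, SPC34) or 30 min (DAD1, DAD3, DAD4, ASK1). DAD2 (YKR083C, chrXI:596421-596822) had RNA values of 29.4, 64.7, 56.4, 40.5, 31.0, 29.3 and 49.2 from 0 to 60 min and of 71.6, 55.0, 42.0, 35.4, 34.5, 35.9, 45.8 and 49.9 from 70 to 140 min. Its second-cycle value at 70 min exceeded that of the first cycle, which was not so for MTW1, MIF2 or CTF13. DUO1 reached 59.6 at 10 and at 20 min and was 23.7 at 50 min. DAD1 was 80.2 at 20 min and 80.4 at 30 min, and ASK1 44.3 and 44.6, so that their highest times were not distinct. In the second cycle, 6 of the 9 were highest at 90 min and DUO1, DAD2 and DAD4 at 70 min. The narrowest range was 1.40-fold for SPC19 in the first cycle and 1.12-fold for DAD1 in the second.

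The chromosomal passenger complex holds the Aurora kinase IPL1, its activator SLI15 and the survivin-like BIR1, and shugoshin, encoded by SGO1, guards tension sensing at the centromere. SGO1 (YOR073W, chrXV:464771-466543) had RNA values of 7.65, 17.9, 26.1, 27.7, 22.7, 15.9 and 10.6 from 0 to 60 min and of 16.8, 20.9, 24.5, 21.4, 18.9, 12.7, 13.3 and 18.5 from 70 to 140 min. It followed S phase closely, with its highest values at 30 and 90 min and low values at 60 and 120 min. IPL1 was highest at 10 min with 19.6 and was 3.97 in the arrest, the lowest value of any of the 40 genes. SLI15 was highest in the arrest with 28.5 and nearly as high at 20 min with 27.9, against 13.6 at 60 min. BIR1 stayed between 20.8 and 26.0 throughout.

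Among the checkpoint genes, the kinases MPS1 and BUB1 had RNA time courses that repeated closely between the cycles, with correlations of 0.95 and 0.95. BUB1 (YGR188C, chrVII:872044-875109) had RNA values of 5.14, 20.6, 19.1, 14.1, 9.27, 6.44 and 7.02 from 0 to 60 min and of 11.4, 12.3, 11.1, 8.67, 6.86, 6.32, 8.54 and 10.3 from 70 to 140 min. BUB1 had the largest S phase difference of the 40 genes in both cycles, with log2 values of 1.17 and 0.74. BUB3, which binds Bub1 and Mad3, was highest at 10 and 70 min with 52.2 and 46.7. MPS1 was highest at 30 and 90 min with 30.4 and 28.3. MAD3 was highest at 20 min with 25.9 and MAD1 at 40 min with 44.1, though MAD1 was nearly as high at 30 min with 44.0. MAD2, whose protein blocks Cdc20, was 93.5 in the arrest and between 44.3 and 59.4 at all later times, with no S phase peak in the second cycle.

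For 11 pairs of subunits that bind each other directly, the correlation of log2(value + 1) over the 14 time points after release is given, as a description. It was highest for BUB1 with BUB3 at 0.85, DSN1 with NSL1 at 0.84 and IPL1 with SLI15 at 0.80. It was -0.45 for NDC80 with NUF2 and -0.06 for OKP1 with AME1. Of the 11 pairs, 4 lay above 0.52, the median of all 780 pairs of the 40 genes. With the arrest included, SPC24 with SPC25 was at -0.36 against 0.51 without it, and MAD1 with MAD2 at -0.52 against 0.32.

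The arrest separated the genes further. RNA at 0 min was set against the mean log2(value + 1) of the later G1 samples at 70 and 130 min. The median difference was -0.41 over the 40 genes and 0.01 over all genes. At least 1.5-fold lower in the arrest were 15 genes, or 37.5%, beside 16.8% of all genes, with SPC24 at -1.78, CTF13 at -1.44 and BUB3 at -1.27 the lowest. At least 1.5-fold higher were 3, which were SPC25 at 2.11, MAD2 at 0.87 and SLI15 at 0.74, beside 20.3% of all genes. At 2-fold the counts were 5 lower, beside 7.42% of all genes, and 1 higher, beside 10%. The median of 4 pheromone response genes was 3.46 higher in the arrest on the same scale. The medians of the other cell-cycle gene lists were lower there than that of the 40 genes. They were -3.45 for G1/S genes, -3.13 for M/G1 genes, -2.65 for G2/M genes and -2.16 for core histones. Arrested cells differ from the later G1 samples in pheromone signalling as well as in synchrony, and these cannot be told apart.

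The same measures were taken over 17 further kinetochore genes. At least 1.5-fold higher in S phase in both cycles were 3 of them, SPC105, whose protein is the scaffold for Bub1, CBF2, the largest CBF3 subunit, and STU2, a microtubule polymerase. Both highest values fell within 10 to 30 min and 70 to 90 min for 12 of the 17. Their log2 differences in the successive cycles were 1.19 and 0.64 for SPC105, 1.06 and 0.70 for CBF2, and 0.96 and 0.59 for STU2. A G1/S sequence was present in 7 of the 17 promoters and GTAAACA in 0.

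Chromatin was measured in the same cultures. The gene-body nucleosome entropy is a Shannon entropy, taken over the nucleosome score along a gene, and a high value means that nucleosomes are less regularly placed. It was turned into z-scores over the 15 time points of each gene. The mean z-score in S phase exceeded that of G1, G2/M and M in both cycles for 38 of the 40 genes, beside 88.7% of all genes, so that nearly every gene did so in either list. The median difference in z-scores was 2.02 in the first cycle over the 40 genes and 1.63 over all genes, and 1.30 and 1.02 in the second. Entropy was highest at 20 min for 15 of the 40 genes, beside 26.4% of all genes, and at 30 min for 19, beside 47.2%. In the second cycle it was highest at 80 min for 8, beside 27.6%, and at 90 min for 24, beside 40.6%. After the median of all genes was removed at each time point, 21 of the 40 were higher in S phase of both cycles, beside 29.9% of all genes.

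**Figure D4:**
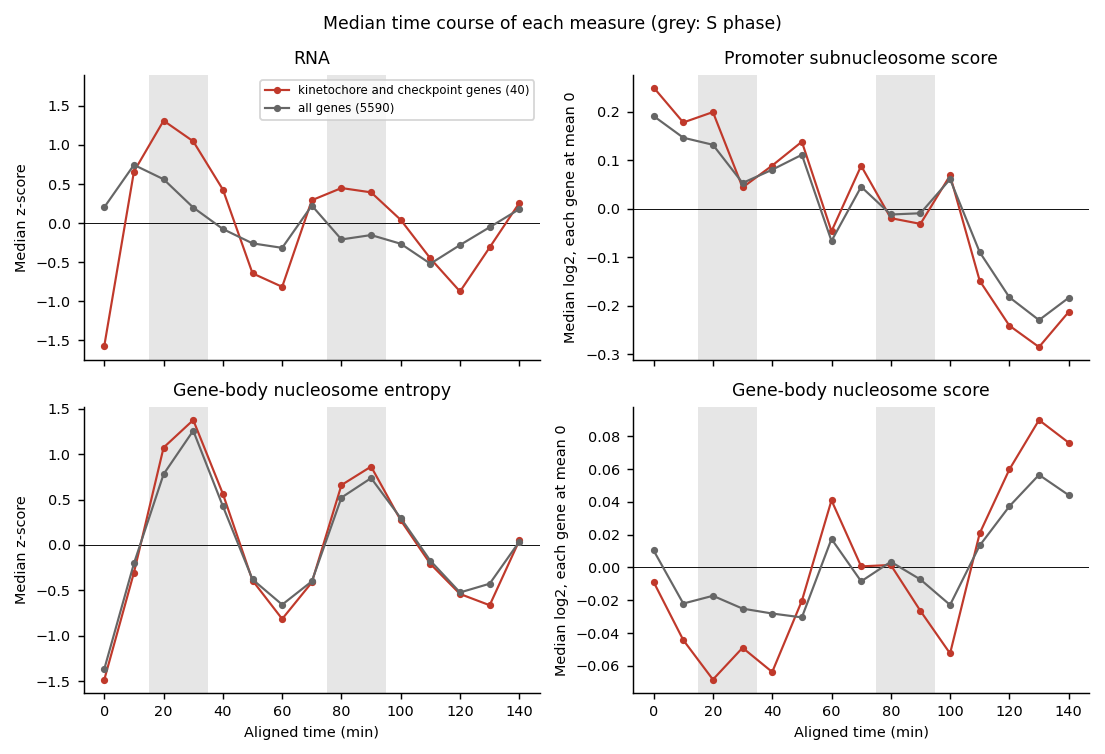
Median over the 40 genes (red) and over all 5590 genes (grey) of RNA and entropy as z-scores and of the promoter subnucleosome score and gene-body nucleosome score as log2 with the mean of each gene at 0, against aligned time in min, with S phase in grey. The RNA curve of the 40 genes is at -1.57 at 0 min and 1.31 at 20 min and parts from that of all genes, whereas the entropy and promoter curves of both lists run close together.

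The time of the entropy rise was also set against the distance to a replication origin, as a description. Subtracting the 20 min z-score from the 30 min one gives a value that is positive where entropy was higher at 30 min than at 20 min. It had a Pearson correlation of 0.43 and a Spearman correlation of 0.36 with the distance over the 40 genes, and of 0.28 and 0.35 over all 5590 genes. Genes near one origin share its replication and are not independent. Gene midpoints lay between 565 and 55587 bp from the nearest of 352 annotated origins, and 5 lay within 5000 bp. DUO1, at 565 bp, had z-scores of 2.10 (20 min) and 0.93 (30 min). SPC24, at 2009 bp, had 2.20 and 1.10. SPC19, at 42758 bp, had -0.31 and 2.27. MIF2, at 55587 bp, had -0.20 and 1.28. Of the 5 nearest genes, DAD4 and MAD1 had a higher z-score at 30 min than at 20 min. The entropy of DAD4 was not later, however. It was highest at 10 min in the first cycle, with 5.13, beside 5.113 at 20 min and 5.129 at 30 min. DAD4, at 1695 bp, had 0.89 at 20 min and 1.28 at 30 min, and MAD1, at 4589 bp, had 0.41 and 1.53.

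The gene-body nucleosome score, the match of the fragments to a model nucleosome, was lower in S phase than in G1, G2/M and M in both cycles for 26 of the 40 genes, or 65%, beside 43.6% of all genes. The median log2 difference over the 40 genes was -0.06 and -0.07 in the successive cycles, and over all genes -0.01 and -0.03. DSN1 had the lowest differences, with -0.28 and -0.25. Its score was 0.0355 at 20 min and 0.0334 at 30 min, against 0.0370 at 50 min and 0.0423 at 60 min. MCM22 was higher in S phase, with 0.22 and 0.05.

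The subnucleosome score of the promoter, named for fragments shorter than a nucleosome, showed no common S phase difference among these genes. It was compared on the log2 scale after the median of all promoters at each time point had been subtracted. None of the 40 was at least 1.2-fold higher in both cycles, beside 1.31% of all genes, and none was at least 1.2-fold lower, beside 0.680%. Of any size, 14 were higher in both cycles, beside 27.6% of all genes, and 10 were lower, beside 32%. The widest difference was that of CTF3, with 0.61 in the first cycle, but 0.05 in the second. The CTF3 score was 0.00931 at 20 min and 0.00936 at 30 min, against 0.00558 at 50 min and 0.00609 at 60 min. It was the lowest promoter score of the 40 genes on average, at 0.00712, beside a median of 0.0231 over all genes. For 19 of the 40 genes the next gene upstream is transcribed in the opposite direction, so that their promoter windows may hold factors of either gene.

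RNA and chromatin were last compared within genes, as the correlation over the 15 time points with the all-gene median at each time point first subtracted from both. Neighbouring time points share cultures, and the values are descriptions. RNA and entropy had a median correlation of 0.32 over the 40 genes and 0.18 over all genes, RNA and nucleosome score -0.26 and -0.21, and RNA and promoter score 0.13 and 0.15. The genes themselves spread widely, with RNA and entropy between -0.70 for IML3 and SPC25 and 0.92 for SGO1. For the promoter score the extremes were SPC25 at 0.71, CTF19 at 0.66 and NUF2 at 0.60, and SPC24 at -0.78, DAD1 at -0.76 and DUO1 at -0.66. The arrest sample may weigh heavily in some of these. The deposited promoter scores of SPC25, SPC24 and DAD1 were highest there, where RNA was highest for SPC25 and lowest for SPC24 and DAD1. Values of single genes without the arrest are not given.

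SGO1 is the gene whose RNA and gene-body entropy ran most closely together. The entropy of SGO1 was 5.323, 5.53, 5.63, 5.657, 5.587, 5.485 and 5.402 from 0 to 60 min and 5.424, 5.607, 5.604, 5.613, 5.515, 5.473, 5.421 and 5.525 from 70 to 140 min. Both measures were lowest in the arrest, and both were high in S phase. The nucleosome score of SGO1 ran the other way, with a correlation of -0.81 with RNA.

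NUF2, whose RNA was late, also had late entropy. The entropy of NUF2 was 5.583, 5.632, 5.64, 5.707, 5.754, 5.711 and 5.732 from 0 to 60 min and 5.684, 5.712, 5.729, 5.734, 5.717, 5.647, 5.697 and 5.698 from 70 to 140 min. It was highest at 40 min and at 100 min, later than the 20 or 30 min of 34 of the 40 genes. Other late genes did not pair in this way. MTW1, NSL1 and BUB3 also had entropy highest at 40 min, but RNA highest at 10, 20 and 10 min. AME1, IML3 and MAD1 had first-cycle RNA highest at 40 min, but entropy highest at 30, 20 and 30 min. Their highest RNA times were not distinct, however. MAD1 RNA lay between 42.1 and 44.1 from 10 to 50 min, and the first-cycle range was 1.255-fold for AME1 and 1.335-fold for IML3. For NUF2 the correlation of entropy with RNA was 0.67, and that of the nucleosome score with RNA was -0.82. NUF2 lies 32521 bp from the nearest origin.

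SPC25 and MAD2, both with RNA highest in the arrest, differed in their chromatin there. The entropy of SPC25 was 5.744, 5.924, 6, 6.006, 5.975, 5.955 and 5.916 from 0 to 60 min, and that of MAD2 was 6.017, 5.976, 6.022, 5.975, 5.945, 5.932 and 5.893. In the arrest SPC25 entropy was the lowest of its time course, whereas MAD2 entropy was at 6.017 close to its highest value of 6.022 at 20 min. SLI15, the other gene with RNA highest in the arrest, had its highest entropy there as well, with 5.949 against 5.839 at 30 min. The correlation of RNA with entropy was -0.70 for SPC25, 0.73 for MAD2 and 0.55 for SLI15.

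**Figure D5:**
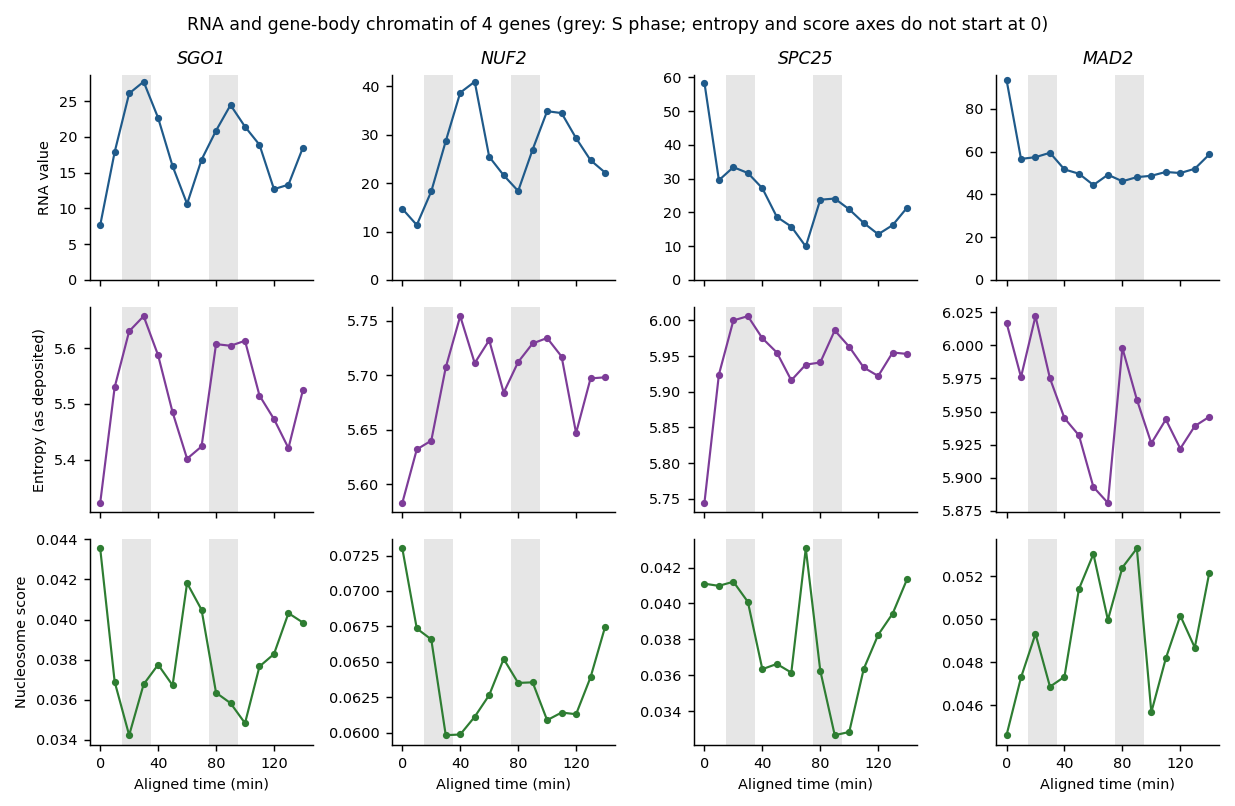
RNA value (top), gene-body entropy (middle) and gene-body nucleosome score (bottom), all as deposited, against aligned time in min for SGO1, NUF2, SPC25 and MAD2, 1 point per merged time point and S phase in grey; the axes of entropy and score do not start at 0. In SGO1 the entropy follows the RNA, in NUF2 both are highest at 40 to 50 min, and in the arrest SPC25 has its lowest entropy and MAD2 one of its highest.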

How the data were processed

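Yeast cultures were sampled at 15 aligned time points, in 29 RNA and 30 MNase-seq libraries of 2 replicates. Per the methods, the authors aligned reads to the sacCer3/R64 genome with Bowtie 0.12.7, kept uniquely mapped MNase fragments, subsampled them equally for each fragment length and pooled both replicates. The tool that counted RNA reads is not given in the sources used here. All 4 deposited tables were treated as scores, with 1 merged value per gene and time point, which precludes an SD and a test. The RNA score deposited under the name TPM summed to between 949828 and 1041385 per time point over the listed genes. The nucleosome score is a cross-correlation with a model nucleosome, divided in the methods by the DNA copy number, though this is not stated for the gene-body table, and entropy is its Shannon entropy. The window and scaling of the promoter subnucleosome score are not described, and its column sums ran between 118.8 and 157.2, so that it was compared after subtraction of the median of all promoters. Unique mapping lowers MNase scores in repeated sequence.

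RNA was compared as log2(value + 1), which understates differences of low genes. Genes were called at 1.5-fold for RNA and 1.2-fold for the promoter score, and counts are given beside the share of all genes called. Origins, neighbouring genes and sequences came from the RefSeq R64 annotation and genome, in which all 40 genes had the coordinates of the tables. Of the gene IDs of the tables, 5587 were found in that annotation. Starts on the + strand were read as counting from 0. The genes and lists were chosen with earlier results of these data known. The genes named were any of the 40, with every time point given for the widest-ranging gene of each role group and for genes singled out after their values were seen (NUF2, and the entropy of SGO1, SPC25 and MAD2), and the called genes among 17 further kinetochore genes. Alternatives covered pseudocounts, scaling, a filter on the mean, thresholds, time points and the type of correlation. The procedures were tested on simulated data. Python 3.11.15 was used with numpy 2.4.6, pandas 2.3.3 and matplotlib 3.10.9.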

Additional observations from a re-analysis of the deposited data

Results flagged for a closer look

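In 5 cases a gene moved in opposite directions in the 2 cycles, which was not tested. The S phase difference of RNA on the log2 scale was larger in the first cycle than in the second by 0.42 for CTF19 (0.37 and -0.05), by 0.060 for IML3 (0.02 and -0.04) and by 0.40 for MAD2 (0.31 and -0.09). The rise of gene-body entropy in S phase, in z-scores, was larger in the first cycle than in the second by 2.14 for CTF19 (2.07 and -0.07) and by 0.61 for BUB3 (0.10 and -0.51).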

How the results depend on the processing

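Of 169 values under alternatives, 138 kept within 1.5 times of the reported value and 31 moved further. None changed sign, which only correlations and differences could do, since a count has no sign. The entropy count on deposited values was bound to equal the reported one, because z-scores keep the sign of a difference within a gene. The main count was 5 genes at least 1.5-fold higher in S phase of both cycles, beside 2.02% of all genes. It was 0 with a pseudocount of 5, beside 1.31%, and 2 with upper quartile scaling, beside 1.56%. At 2-fold it was 0, beside 0.250%, without 110 min 8, beside 1.735%, and by direction only 35, beside 50.1%. Leaving out 1 time point at a time gave counts from 3 (without 50 min, beside 1.61%) to 8 (without 110 min, beside 1.735%). The count lower was 0 and became 1, beside 0.805% of all genes, when 10 and 70 min replaced 30 and 90 min, with NUF2 at -1.11 and -0.65. In that setting SPC25 (0.03 in the second cycle) and SLI15 (0.56) left the genes called higher. Others entered, so that the count higher was 7, beside 3.26% of all genes. No test was run on either count. The single gene with recurring peaks, beside 3.85% of all genes, became 2 with a pseudocount of 0.1 (4.99%) or without the arrest in the first cycle (3.435%). The count was 0 with a pseudocount of 5 (2.92%), upper quartile scaling (3.435%), a 3-fold range (1.02%), a running mean (1.23%) or without 110 min (3.36%). At a 1.5-fold range it was 15, beside 11% of all genes. In the arrest, a 2-fold threshold left 1 gene higher, beside 10% of all genes, and 5 lower, beside 7.42%, in place of 3 and 15. The promoter count of 0, beside 1.31% of all genes, was 3 without centring, beside 5.295%, and 14 by direction only, beside 27.6%. With 10 and 70 min in place of 30 and 90 min it was 1, beside 1.717%. By direction only it ran from 12 to 17 with 1 time point left out, and the share of all genes from 25.55% to 29.25%. The 38 genes with higher entropy in S phase were 21 after centring on all genes, beside 29.9% of all genes. With 1 time point left out they were 35 (without 30 min, beside 83.3%) to 39 (without 130 min, beside 88.8%). The median correlation of RNA with the promoter score, 0.13, was 0.21 without centring and 0.084 by Spearman, and that with entropy, 0.32, was 0.21 without the arrest, 0.59 without centring and 0.19 by Spearman. Upper quartile scaling moved the first-cycle median of all genes by -0.16, so that S phase differences of RNA are best read against that median; 5 genes in place of 2 were then lower in S phase of both cycles at any size, and likewise 5 after centring on all genes. Where no cause is named, the cause was not tested. The count of genes highest at 10 to 30 and 70 to 90 min lay between 26 (beside 16.1% of all genes, upper quartile scaling) and 34 (beside 45.8%, without the arrest) under 5 alternatives, and the median correlation between cycles between 0.76 and 0.83 under 4. Chosen after seeing the data were the alternatives that left out each time point in turn, those on RNA direction, on highest times and on the correlation between cycles; those without 110 min alone and on promoter direction were not. No paired analysis was possible because each column already combines both replicates, which likewise prevented leaving out a replicate. Depth per gene is unknown, and the replicate merging hides the error of every value.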
